A study of Mus musculus with 3 samples.

Results

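Genes of cilium transport and of the motile cilium were compared between Dido mutant and wild-type mouse embryoid bodies. They were chosen by the gene name printed in the array files: the Ift, Bbs, Tekt and Rsph families, the kinesin genes Kif3a, Kif3b, Kif3c and Kif17, the dynein-2 genes Dync2h1 and Dync2li1, and Foxj1. This gave 38 genes read by 54 probes, of 30175 genes and 39429 probes on the array. Of the 38, 26 were transport genes and 12 were motile cilium genes. The name pattern also asked for Dnah genes, the axonemal dynein heavy chains. It found none, because the array names them by the older symbol Dnahc. The Dnahc genes were therefore not members, and are given separately beside the motile genes.

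Embryoid bodies are clumps of embryonic stem cells left to differentiate in suspension. In the mutant, Dido3deltaCT+HADidoNT, Dido3 lacks part of its C terminus and the N-terminal stretch that Dido proteins share, with its PHD domain, is overexpressed; the label also names an HA tag. The other genotype was labelled Wildtype control. Both were kept for 10 days in low-attachment plates, without the self-renewal factor LIF. There were 3 biological replicates per genotype, and each of 3 arrays compared 1 mutant RNA with 1 wild-type RNA in 2 colours. Mutant RNA carried Cy3 on array 1 and on array 3, and Cy5 on array 2, so that a dye effect does not cancel. The labels do not say how many clones stand behind either genotype or what promoter drives the added protein. Each ratio below is a log2 of mutant over wild type, with its SD over n = 3 arrays, and each level is a normalized log2 intensity of 1 RNA at 1 probe.

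Cilia are built and maintained by intraflagellar transport. Trains of IFT-B proteins are carried towards the tip by kinesin-2 motors, and trains of IFT-A proteins are carried back by dynein-2. The BBSome, a complex of Bardet-Biedl syndrome proteins, loads membrane proteins such as signalling receptors onto these trains. Nearly all cells can form a primary, non-motile cilium with this machinery. Motile cilia add axonemal dynein arms that bend the axoneme, radial spokes that regulate the bending, and tektin filaments in the microtubule walls. Foxj1 is the transcription factor that directs the motile programme. In the embryo, motile cilia beat at the node, and later on ependymal and airway cells.

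Facts of the whole arrays bear on every value below. Median spot intensity was 192, 202 and 288 units in green and 150.5, 205 and 210.4 in red on arrays 1, 2 and 3. Mutant RNA was well above background at 66.5% to 74.8% of spots and wild-type RNA at 64.8% to 76% of them. Of the 4 probes of Dido1, the altered gene, 2 were higher in the mutant on all arrays (3.03 ± 0.34 and 2.35 ± 0.40), 1 was lower on all arrays (-3.60 ± 0.17) and 1 was mixed (-0.54 ± 0.93). Markers of visceral endoderm (14 of 14), cardiac muscle (15 of 15), neural progenitors (15 of 15) and pluripotent cells (9 of 10) were measured above background. Of 12 markers of multiciliated ependymal and airway cells, 9 were measured, and Cdc20b, Scgb1a1 and Spag6 were not above background. In such bulk RNA, fewer cells of a type and less RNA per cell cannot be told apart.

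No member passed the test over all genes. With limma and Benjamini-Hochberg adjustment at 0.05 over 19686 genes, 0 of the 35 members measured were called higher, where 1.27% of all genes were, and 0 were called lower, where 0.391% were. At an unadjusted p under 0.05, 1 member was higher and 7 were lower, against backgrounds of 12.1% and 7.78%. None was at least 2-fold higher on all 3 arrays (3.11% of all genes) or at least 2-fold lower on all 3 (1.08%). The 3 members not measured were Ift140, Tekt3 and Tekt5. Tekt3 was above background in neither RNA on any array, while Ift140 and Tekt5 were above it on 2 of 3 arrays in the mutant and 1 of 3 in wild type.

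The promoters of the members were searched for the X-box, the motif bound by RFX transcription factors, which switch on genes of both primary and motile cilia. RefSeq windows on GRCm38.p6, from 250 bases before to 50 after the start site, were found for 31 of the 38 members. The X-box was present on either strand in 5 of these 31 genes (16.1%), namely Bbs1, Ift57, Kif17, Rsph3b and Tekt2, and in 1.75% of 27025 genes in all. It was in the windows of none of 13 dynein heavy chain genes. The forkhead motif TGTTTAC, which Foxj1 and its relatives can bind, was found on either strand in 1 of the 31, Tekt3, in 1 of the 13, Dnah17, and in 4.05% of all genes. No member held both motifs. The 150 bases before the start site are shown for the 3 members with an X-box there, with the X-box in capitals:

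Ift57 (chr16:49699144-49699293, plus strand): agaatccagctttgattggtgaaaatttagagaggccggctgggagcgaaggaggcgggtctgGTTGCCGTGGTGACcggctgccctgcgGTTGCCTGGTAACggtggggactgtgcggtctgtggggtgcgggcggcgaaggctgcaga

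Kif17 (chr4:138262101-138262250, plus strand): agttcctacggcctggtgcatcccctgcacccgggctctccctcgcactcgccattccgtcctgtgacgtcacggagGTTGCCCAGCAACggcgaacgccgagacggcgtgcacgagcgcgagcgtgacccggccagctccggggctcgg

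Tekt2 (chr4:126325647-126325796, minus strand): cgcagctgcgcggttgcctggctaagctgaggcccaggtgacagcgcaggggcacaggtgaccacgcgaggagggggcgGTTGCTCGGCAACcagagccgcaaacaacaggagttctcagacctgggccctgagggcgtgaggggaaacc

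The X-box genes did not share a direction: Ift57 was at -0.20 ± 0.13, Bbs1 at -0.46 ± 0.26, Kif17 at -0.0042 ± 0.27, Rsph3b at 0.13 ± 0.22 and Tekt2 at 0.25 ± 0.53. A match describes letters in these windows, not a bound site.

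Most transport genes had a mean slightly below 0. The 25 measured had a median log2 ratio of -0.32, against -0.013 over all genes tested, and ran from -0.97 for Ift172 to 0.56 for Dync2h1. A mean below 0 was found for 19 of the 25, and for 51.3% of all genes. Of the 25, 10 were lower on all 3 arrays, against a background of 19.1%, and 2 were higher on all 3, against 22.5%. The sign of another 11 followed the dye, changing between array 2 and the other 2 arrays, as it did for 38.4% of all genes. At array 2 the transport genes below 0 numbered 13, and those below 0 on both other arrays 18. By array the transport median was -0.32, -0.070 and -0.63 on arrays 1, 2 and 3. It was closest to 0 on array 2, the one with the dyes exchanged.

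**Figure D1:**
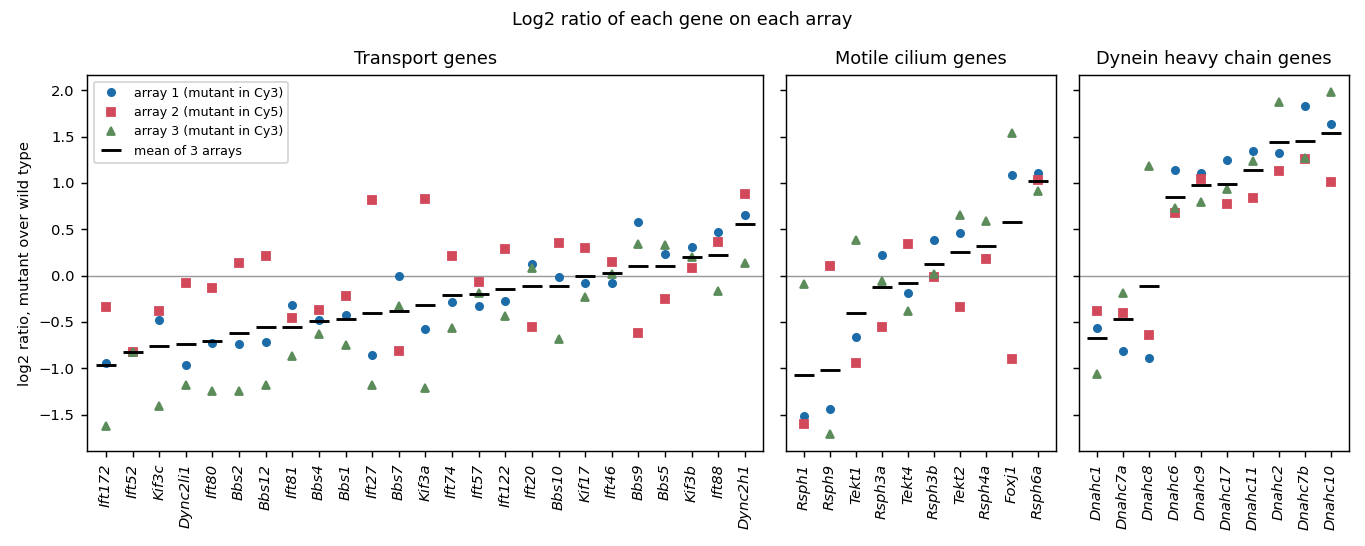
Log2 ratio of mutant over wild type (vertical axis) on each of 3 arrays (points) with the mean (bars), for 25 transport genes, 10 motile cilium genes and 10 dynein heavy chain genes under their array names. Ift52 reads almost the same on the 3 arrays, Foxj1 and Ift27 change sign on array 2, and 7 dynein heavy chain genes lie above 0 on every array. Of these 7, Dnahc10, Dnahc17, Dnahc9 and Dnahc6 were kept only through their mutant RNA.

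Among IFT-B genes, 5 of 10 were lower in the mutant on all 3 arrays and none was higher on all 3, with a class median of -0.31. Ift52, a core subunit that holds the complex together, had the most even values of the members. Its mutant RNA read 11.29, 11.62 and 11.68 log2 units on arrays 1, 2 and 3, against 12.11, 12.45 and 12.51 in wild-type RNA. The mutant was lower on each array, by a log2 ratio of -0.82, -0.83 and -0.83. The mean ratio was -0.83 ± 0.0029, a 1.77-fold lower level in the mutant, and did not pass (limma adjusted p = 0.0971). With a dye effect as a term in the fit it passed (limma adjusted p = 0.0359), although that fit leaves only the spread between arrays 1 and 3 and called 5.01% of all genes lower and 7.88% higher.

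Ift172, known from Chlamydomonas to help turn the trains round at the tip, read 9.10, 9.76 and 9.18 in mutant RNA and 10.04, 10.10 and 10.80 in wild-type RNA. It was lower in the mutant on all arrays, at -0.97 ± 0.64 (limma adjusted p = 0.18), with the smallest difference on array 2. Ift81, which carries tubulin together with Ift74, was at -0.32, -0.46 and -0.87 (limma adjusted p = 0.248). Ift80 and Ift57 were the other IFT-B genes lower on all arrays, at -0.70 ± 0.56 and -0.20 ± 0.13. Ift74 itself was at -0.21 ± 0.39 at its brighter probe. The sign of Ift74, Ift20 and Ift27 followed the dye. Ift27, a small GTPase that links the trains to the BBSome, showed this most, at -0.86, 0.82 and -1.18. Ift88, a core subunit, and Ift46 were near 0, at 0.22 ± 0.34 and 0.028 ± 0.12. Of the IFT-A genes Ift122 alone was measured, at -0.14 ± 0.38, with a sign that followed the dye.

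The 8 Bbs genes had a median of -0.42. Of these, 3 were lower on all arrays and the sign of the other 5 followed the dye. Bbs4, a BBSome subunit, read 10.35, 10.02 and 10.08 in mutant RNA against 10.84, 10.39 and 10.71 in wild-type RNA. The mutant was lower on every array by a similar amount, at -0.49 ± 0.13 (limma adjusted p = 0.243). Bbs1, another subunit, was at -0.42, -0.22 and -0.75, and its second probe, with a spot marked as an outlier on array 1, was left out. Bbs2, also a BBSome subunit, had the lowest mean of the class, at -0.62 ± 0.70, but was at 0.13 on array 2. Bbs12, a chaperonin-like protein needed to assemble the BBSome, was at -0.56 ± 0.71 in the same pattern. Bbs10, a related chaperonin-like protein, was at -0.11 ± 0.53 and Bbs5 at 0.10 ± 0.32.

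The motor genes lay on both sides of 0, with 2 of 6 higher and 2 lower on all arrays. Dync2h1, the heavy chain that powers return transport, read 11.33, 11.25 and 11.35 in mutant RNA against 10.67, 10.36 and 11.21 in wild-type RNA. It was higher in the mutant on all arrays, at 0.56 ± 0.38 (limma adjusted p = 0.276), and was the highest of the transport members. Its partner Dync2li1, the light intermediate chain of the same motor, read 9.50, 11.25 and 10.91 in mutant RNA against 10.47, 11.33 and 12.09 in wild-type RNA. It was lower on all arrays, at -0.74 ± 0.58 (limma adjusted p = 0.248), with almost no difference on array 2. The difference between the 2 genes was not tested. Kif3c, a kinesin-2 chain that can pair with Kif3a, was at -0.48, -0.38 and -1.41, and Kif3b, the usual partner of Kif3a, at 0.20 ± 0.12.

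Kif3a, the motor subunit shared by the main kinesin-2 complexes, was read by probes that disagreed. The brighter one, which stood for the gene, lies at chr11:53415270-53415329 (mm9, plus strand). It read 10.77, 11.43 and 11.10 in mutant RNA against 11.34, 10.60 and 12.31 in wild-type RNA. Its ratios of -0.57, 0.83 and -1.21 followed the dye, and the mean was -0.32 ± 1.04. The other probe lies 17383 bases upstream at chr11:53397887-53397946. It is shown because it is the one member probe that passed when all probes were tested singly:

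Kif3a probe 1: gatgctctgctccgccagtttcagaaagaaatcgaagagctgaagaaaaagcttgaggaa

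This probe read 11.53, 11.35 and 11.61 in mutant RNA, all above the 10.08, 9.78 and 9.89 of wild-type RNA. Its mean ratio was 1.58 ± 0.14, a 2.99-fold higher level in the mutant. In limma over 25496 probes its adjusted p was 0.0383, where 1.92% of all probes were called higher. Testing probes singly was chosen after the values were seen. The call was lost in 5 of 11 other settings run for it, at an adjusted p of up to 0.235, and the ratio stayed between 1.34 and 1.65. Among these losses were the fits without array 1 and without array 3, which leave 2 arrays. Both probes carry the same transcript in the array's own annotation.

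Kif17, a kinesin that carries cargo in cilia and in neurons, had 3 kept probes that also differed. From the upstream to the downstream end of the gene their mean ratios were 1.36 ± 0.40, 0.32 ± 0.07 and -0.0042 ± 0.27. The most upstream probe, at chr4:137842918-137842977 (mm9, plus strand), is annotated to an Ensembl transcript of its own:

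Kif17 probe 1: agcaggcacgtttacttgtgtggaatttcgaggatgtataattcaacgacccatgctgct

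It read 7.49, 7.90 and 8.27 in mutant RNA against 6.29, 6.83 and 6.45 in wild-type RNA, where it was above background on 2 of 3 arrays. This probe was thus kept only through its mutant RNA, a filter that favours a higher mutant value. It was higher in the mutant on every array, at an adjusted p of 0.0598 in limma over single probes, and did not pass. It passed with a dye term (limma adjusted p = 0.0265), without array 2 (limma adjusted p = 0.0188) and with the scanner software's own ratio (limma adjusted p = 0.0383), where it was at 3.66. Of all genes, these settings called 7.88%, 15.5% and 2.96% higher, and without array 2 genotype and dye cannot be told apart. Given the filter, these passes support no direction. The brightest Kif17 probe, 14423 bases downstream, changed sign between arrays.

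Of 11 members with more than 1 kept probe, the means had opposite signs in 5: Kif3a, Kif17, Bbs7, Ift74 and Rsph3a. For Kif17 and Rsph3a every probe with a mean above 0 was kept only through its mutant RNA, a filter that favours a higher mutant value. For Bbs7, a BBSome subunit, the means were -0.38 ± 0.41 and 0.34 ± 0.68. For Ift74 and Rsph3a the means of the probes differed by 0.28 and 0.24. In the other 6 genes the probes gave one sign, and their means differed by at most 0.24.

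**Figure D2:**
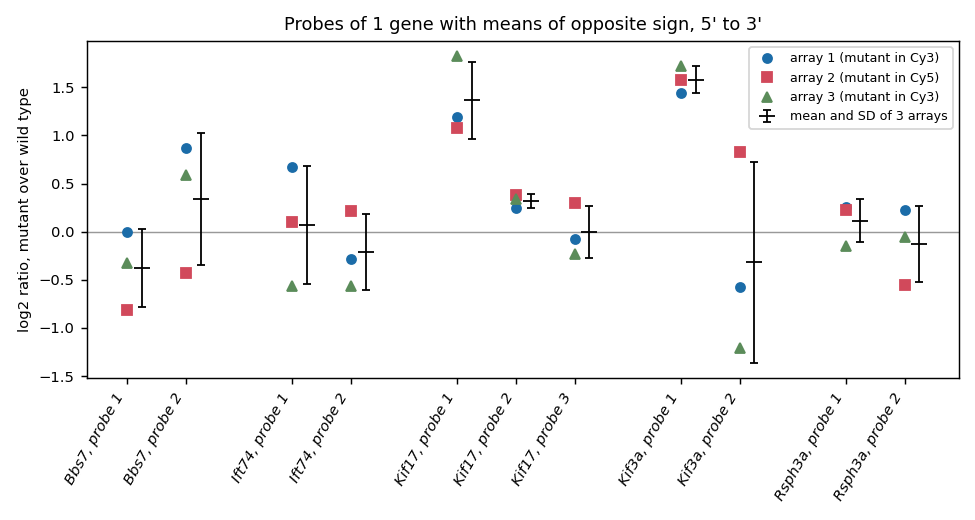
Log2 ratio of mutant over wild type (vertical axis) on each array for the kept probes of the 5 members whose probe means had opposite signs, ordered from the upstream to the downstream end of the gene. Black marks give the mean and SD of 3 arrays. The upstream probes of Kif3a and Kif17 lie above 1 on all 3 arrays, at means of 1.58 and 1.36, while their last probes scatter around 0. The Kif17 and Rsph3a probes with a mean above 0 were kept only through their mutant RNA.

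The motile cilium genes had no common direction. The 10 measured had a median of 0.025 and ran from -1.07 for Rsph1 to 1.02 for Rsph6a. Of the 10, 2 were higher on all arrays, 1 was lower on all arrays and the sign of 5 followed the dye. The median by array was 0.21, -0.18 and 0.20. The difference between the motile and the transport medians was 0.53, -0.11 and 0.83 on arrays 1, 2 and 3, so it was not of one sign. Over the 3-array means it was 0.34, less than the SD of 0.48 between arrays.

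Foxj1 read 9.63, 8.72 and 9.63 in mutant RNA and 8.54, 9.62 and 8.09 in wild-type RNA. Its ratio was 1.09, -0.90 and 1.54, above 0 where the mutant was in Cy3 and below 0 where it was in Cy5. The mean of 0.58 ± 1.30 did not pass (limma adjusted p = 0.604), and with a dye term it was 0.21. Without array 2 the adjusted p in limma was 0.0216 at a ratio of 1.32, but genotype and dye are then the same in both arrays and cannot be told apart. Without array 2, 8 members were called lower in limma, 7 of them transport genes (Ift172, Ift27, Ift52, Ift80, Bbs2, Bbs12 and Dync2li1) and 1 motile (Rsph9), with the same limit. In that setting 10.3% of all genes were called lower and 15.5% higher. Because dye and genotype are the same there, no conclusion about the members is drawn from these calls.

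**Figure D3:**
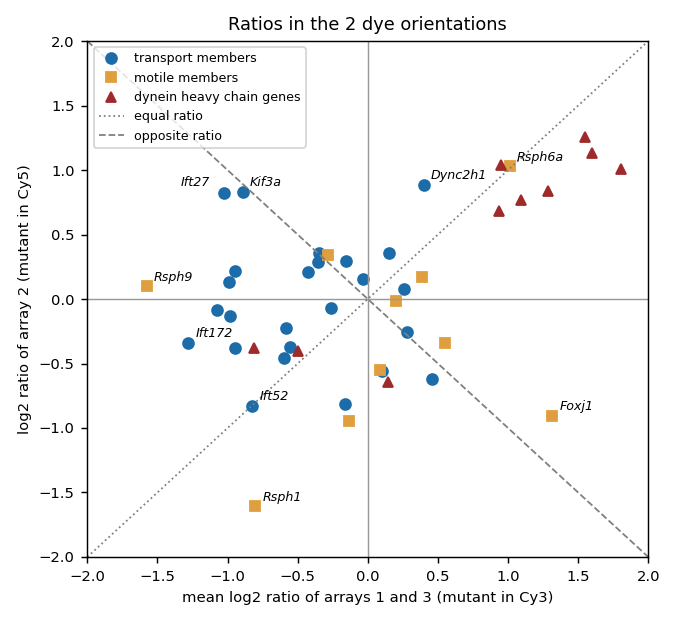
Log2 ratio of mutant over wild type on array 2 (vertical axis, mutant in Cy5) against the mean of arrays 1 and 3 (horizontal axis, mutant in Cy3), 1 point per gene. Genes near the dotted line have the same ratio in both orientations, such as Rsph6a and Ift52, and genes near the dashed line the opposite one, such as Foxj1, Ift27 and Kif3a.

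Radial spoke genes differed among themselves. Rsph6a, a spoke head protein known from sperm tails in mice, read 8.75, 8.21 and 8.01 in mutant RNA against 7.64, 7.19 and 7.09 in wild-type RNA. The ratios of 1.11, 1.03 and 0.92 were all above 0 and close together. The mean of 1.02 ± 0.094, a 2.03-fold higher level in the mutant, did not pass (limma adjusted p = 0.0696). It passed with a dye term (limma adjusted p = 0.0269), where 7.88% of all genes were called higher. With the scanner software's own ratio the mean was 1.57. Its relative Rsph4a, the spoke head protein of other motile cilia, was also higher on all arrays, at 0.32 ± 0.24 (limma adjusted p = 0.455).

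Rsph1, also a spoke head protein, read 7.13, 7.21 and 8.0 in mutant RNA against 8.65, 8.81 and 8.09 in wild-type RNA. Its ratio was -1.52 and -1.60 on arrays 1 and 2 and -0.091 on array 3, which stood apart (mean -1.07 ± 0.85, limma adjusted p = 0.209). A second Rsph1 probe, 18385 bases away, showed the same with -1.22, -1.29 and 0.0061. Tekt1, a tektin of sperm and cilia, had this shape at both of its probes, with -0.66, -0.94 and 0.39 at the brighter one. The ratios of pluripotent cell markers were also highest on array 3 by their median. Of 9 measured, 8 were below 0 on some arrays and above 0 on another, with medians of -2.48, -2.24 and 0.87 on arrays 1, 2 and 3. Their summed normalized intensity was 24770, 35860 and 218100 in mutant RNA and 100500, 251300 and 94200 in wild-type RNA. Germ line and spermatid markers, of which 8 of 12 were measured and 1 is the member Tekt2, held none of one sign on all arrays, and summed to 2185, 1829 and 3683 in mutant RNA against 2997, 7699 and 1991 in wild-type RNA. The part of either cell type in the Rsph1 and Tekt1 values was not tested.

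Rsph9, the other spoke head gene measured, read 8.57, 8.77 and 8.27 in mutant RNA against 10.02, 8.67 and 9.98 in wild-type RNA. Its ratio of -1.44, 0.10 and -1.71 was far below 0 on both arrays with the mutant in Cy3 and near 0 on array 2 (mean -1.02 ± 0.98, limma adjusted p = 0.267). With a dye term it passed (limma adjusted p = 0.0499). Rsph3a and Rsph3b, near-identical copies of a spoke stalk gene whose probes may read each other's RNA, were at -0.13 ± 0.40 and 0.13 ± 0.22. Tekt2 and Tekt4, further tektins, were at 0.25 ± 0.53 and -0.077 ± 0.38, both with a sign that followed the dye.

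Dynein heavy chain genes are the motors of the axoneme. The array names 14 of them, and 10 were measured, with a median ratio of 0.98 and array medians of 1.20, 0.80 and 1.06. Of the 10, 7 were higher on all 3 arrays, where 22.5% of all genes were, 3 of them at least 2-fold (Dnahc7b, Dnahc2 and Dnahc10). Another 2 were lower on all 3, where 19.1% of all genes were, and no sign followed the dye. Of the 7, Dnahc10, Dnahc17, Dnahc9 and Dnahc6 were kept only through their mutant RNA, a filter that favours a higher mutant value, and neither this count nor the median supports a direction of the class. Dnahc7b, Dnahc2 and Dnahc11 were well above background in both RNAs on all arrays, at the probe that stood for each gene. Dnahc8, at -0.89, -0.64 and 1.19, had the shape of Rsph1 and Tekt1. None passed over all genes, while 7 were higher and 1 lower at an unadjusted p under 0.05, as were 12.1% and 7.78% of all genes. Dnahc7b, an inner arm dynein, was at 1.83, 1.26 and 1.27 (mean 1.45 ± 0.33, limma adjusted p = 0.0549). Dnahc2 was at 1.44 ± 0.38 (limma adjusted p = 0.0596) and Dnahc10 at 1.54 ± 0.49 (limma adjusted p = 0.0636), both chains of another inner arm. Dnahc11, which is needed for left-right asymmetry in mice, was at 1.34, 0.84 and 1.24 (limma adjusted p = 0.0697). Dnahc9, Dnahc17 and Dnahc6 were between 0.85 and 0.98. Dnahc1 and Dnahc7a were lower on all arrays, at -0.67 ± 0.35 and -0.47 ± 0.32. Dnahc1 was kept only through its wild-type RNA, a filter that favours a lower mutant value.

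Each of these dynein values rests on few probes. Dnahc17 had 4 probes, of which 3 were above background in neither RNA on any array, and the same held for 2 of 3 Dnahc10 probes. Of 3 Dnahc7b probes, 2 were too dim to be kept, at mean ratios of -0.030 and -0.066. The 4 genes kept through their mutant RNA were above background in 2 of 3 wild-type RNAs. Dnahc7a and Dnahc7b are close copies, so a probe of one may read the other, and a second kept Dnahc7a probe was at 0.58 ± 0.26, opposite to the first. That second probe was above background in 1 of 3 wild-type RNAs and was kept only through its mutant RNA, a filter that favours a higher mutant value. With the scanner software's ratio 6 of the 10 were called higher in limma, at log2 ratios of 1.96 to 2.91, where 2.96% of all genes were. All 4 genes kept only through their mutant RNA were among these 6, so the count supports no direction. Dnahc1, kept only through its wild-type RNA, was at -2.23 with that ratio. With a dye term 6 were called higher (7.88% of all genes), without array 2 it was 7 (15.5%), and with median centring in place of loess 1, Dnahc7b (1.7%). Dnahc10, Dnahc17 and Dnahc9 were among the calls with a dye term, and Dnahc6 as well without array 2, with the same limit. Counting the Dnahc genes as motile, a choice made after the values were seen, moved the motile median to 0.29. The motile median then lay above the transport median on every array, by 0.74, 0.21 and 1.32. The genes added include the 4 kept only through their mutant RNA, so this difference supports no direction.

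**Figure D4:**
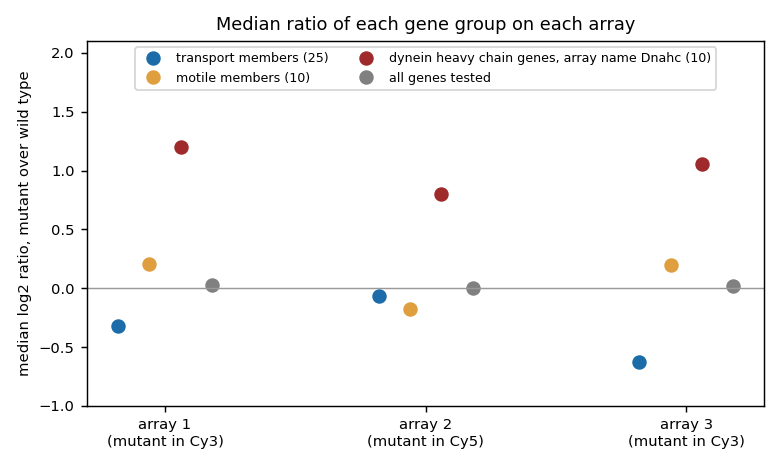
Median log2 ratio of mutant over wild type (vertical axis) on arrays 1, 2 and 3 for 25 transport members, 10 motile members, 10 dynein heavy chain genes and all genes tested. The dynein median is above 0.80 on every array, the transport median is between -0.63 and -0.070, and all genes stay within 0.03 of 0. The dynein genes include Dnahc10, Dnahc17, Dnahc9 and Dnahc6, which were kept only through their mutant RNA.

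Other cilium genes were read from lists with the 38 members left out. No gene of these lists passed over all genes, and their counts stand against 19.1% of all genes lower and 22.5% higher on all 3 arrays. With a dye term, each gene named from them but Ihh passed. That fit called 7.88% of all genes higher and 5.01% lower. The genes were named for their small p-values, so these passes support no direction of the lists. Of 19 measured transport genes under other names, 7 were lower on all arrays and 2 higher, with a median of -0.22. Among the 7, Traf3ip1 was kept only through its wild-type RNA, a filter that favours a lower mutant value. Rabl5, whose current symbol is Ift22 and which is an IFT-B subunit, was at -2.13, -0.87 and -2.35 (limma adjusted p = 0.081), further from 0 than any member. Of 20 transition zone genes, which guard the entrance to the cilium, 4 were lower on all arrays and 1 higher. Cc2d2a was at 1.48 ± 0.34 (limma adjusted p = 0.054), and at 0.74 over the mean of its kept probes, while B9d1 and Tmem231, of the same complex, were at -1.14 ± 0.22 and -0.95 ± 0.22.

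The other axoneme lists were also mixed. Of 17 measured genes for dynein intermediate chains, docking and assembly, 3 were lower on all arrays and 1 higher. Among the 3, Ttc25 was kept only through its wild-type RNA, a filter that favours a lower mutant value. Wdr78, needed to assemble an inner arm, was at 1.33 ± 0.66 and over the mean of its kept probes at 0.86, and 6030429G01Rik, now named Dnaaf3, a dynein assembly factor, at -0.98 ± 0.41. Of 21 central pair, nexin and other axoneme genes, 5 were lower on all arrays and 2 higher. Nme5, found in radial spokes, was lower at -2.05, -1.12 and -1.94 (limma adjusted p = 0.0566). Among 13 transcription and multiciliogenesis genes 5 were lower on all arrays and 2 higher. Of the 5, Foxn4 and Ccno were kept only through their wild-type RNA, a filter that favours a lower mutant value, and Rfx5 only through its mutant RNA. Trp73, which acts upstream of Foxj1 in multiciliated cells, was at -1.08 ± 0.32 (limma adjusted p = 0.084), and over the mean of its kept probes at -0.69. Foxn4 was at -0.91 ± 0.16, above background in 1 of 3 mutant RNAs and all wild-type RNAs. With the scanner software's ratio it was at -2.67, and the limit of the filter holds for both values. Myb, which acts early in multiciliated cells, was at -1.40 ± 0.68.

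The hedgehog pathway signals through the primary cilium in vertebrates. Of 15 of its genes 3 were higher on all arrays, none was lower on all, and the sign of 10 followed the dye. Hhip, a membrane antagonist that hedgehog signalling induces, was at 3.05, 2.54 and 1.14 (limma adjusted p = 0.0724), and its mean of 2.24 was 1.35 over its kept probes together. The ligand Ihh was at 0.96 ± 0.50. Of 7 node and left-right genes 1 was higher and 1 lower on all arrays. Dand5, a Nodal antagonist expressed at the mouse node, was at 1.56 ± 0.44 (limma adjusted p = 0.0585). Genes of these lists are named by their p-values, the smallest first.

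Among markers of other cell types, neural progenitor markers were lower on all arrays in 10 of 15, with medians of -2.43, -0.43 and -2.57 on arrays 1, 2 and 3, the same order of arrays as the transport medians. Their summed normalized intensity was 7023 to 24840 in mutant RNA and 27760 to 75800 in wild-type RNA. Neuron markers were lower on all arrays in 8 of 12, at sums of 12760 to 15500 in mutant RNA and 10200 to 35480 in wild-type RNA. Visceral endoderm markers were higher on all arrays in 13 of 14, at sums of 582600 to 1076000 in mutant RNA and 113200 to 251100 in wild-type RNA. Cardiac muscle markers were higher on all arrays in 12 of 15, at sums of 33290 to 136400 in mutant RNA and 21460 to 47610 in wild-type RNA. In these counts, Pax6 among the lower neural progenitor markers was kept only through its wild-type RNA. Ttn among the higher cardiac markers was kept only through its mutant RNA. Of 9 multiciliated cell markers, Foxj1 among them, 5 were lower on all arrays and 2 higher, 1 of them Ttr, which visceral endoderm makes as well. Over all genes 19.1% were lower and 22.5% higher on all 3 arrays. Of the 5 lower markers, Ccno, Dynlrb2 and Ccdc67 (now Deup1) were kept only through their wild-type RNA, a filter that favours a lower mutant value. The 9 markers summed to 65750 to 92030 in mutant RNA and 13030 to 21970 in wild-type RNA with Ttr. Without it they summed to 6800 to 10690 in mutant RNA and 6467 to 6854 in wild-type RNA. That second sum mostly reflects Gm6320 (now Mcidas), at mean levels of 12.70 and 12.19 log2 units in mutant and wild-type RNA. No other marker in it had a mean level above Foxj1 in mutant RNA, at 9.33. The part of any cell type in the member values was not tested.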

How the data were processed

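Total RNA was amplified and hybridised in 2 colours, per the labels' protocols, on 3 arrays of 1 slide, per the file headers. Spot and background intensity in the deposited scanner files came from Agilent Feature Extraction, version 10.7.3.1, and coordinates are mm9, per the file headers. The software's log10 ratio, red over green, was corrected for background and dye before the authors deposited it, per the file headers. A further table, of log2 ratios, was deposited by the authors and made with limma, per the submitters' processing notes, which give no version. Of its background correction and centring, nothing is given in the sources used here. Its values ran in the direction of mutant over wild type when compared with the scanner ratios. Its column medians were -0.01, 0.02 and -0.01. The flags for spots above background are other 0 or 1 values, per the file headers.

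In R 4.3.3 with limma 3.58.1, local background was limited to 100 units, since on array 2 it exceeded this at 25 spots and reached 75739. Intensities were then corrected by normexp (offset 50) and normalized within arrays by loess, giving control spots no weight. Control and outlier spots were dropped and repeated spots averaged per probe. Probes were kept if well above background in 1 genotype on all 3 arrays (25496 of 39429), and the brightest kept probe stood for a gene, 19686 in all. Ratios were turned to mutant over wild type by the labelled dyes and tested against 0 by lmFit and eBayes (two-sided; Benjamini-Hochberg, 0.05). Single RNAs are given as log2 intensities after Aquantile scaling between arrays. Array names of all 38 members are current symbols in RefSeq (GRCm38.p6). With 3 arrays, the fit has 2 residual and 2.75 prior degrees of freedom, which limits precision. On simulated data with 19686 genes, 100 genes with a true log2 ratio of 1 reached an unadjusted p under 0.05 in 78%. For 100 with a ratio of 2 it was 100%, and neither set gave a call. Only those 100 genes were changed, while in the data 3918 genes were at an unadjusted p under 0.05. The adjustment is stricter with fewer such genes, so the lack of calls there does not carry over to these data.

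Members and lists were chosen with earlier results of these data known. Given in full are Foxj1, the 3 members per class with the smallest p, the 3 largest means per arm and members with probes of opposite sign; other lists give up to 3 genes by p, and Dnahc genes and probes were added after values were seen. Alternatives covered background, normalization, filter, probe rule, dye, deposited values and each array left out.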

Additional observations from a re-analysis of the deposited data

How the results depend on the processing

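The arrays number 3 and array 2 alone has the dyes exchanged, which limits every value. Over all genes 327 passed in limma. That count was 0 without a limit on the local background, without a filter on dim probes and with the deposited value table, 772 with the scanner log ratio, 2539 with a dye term and, with each probe tested singly, 623 genes; without one replicate it ran from 0 to 5075. Members called were 0 in each direction. With a dye term 1 was higher (Rsph6a) and 2 lower (Ift52, Rsph9), and with probes singly 1 was higher (Kif3a); without one replicate the calls ran from 0 to 2 higher and from 0 to 8 lower, the upper ends without replicate 2. There the higher ones were Foxj1 and Rsph6a. The transport median stayed between -0.42 and -0.16, and the difference of motile minus transport between 0.18 and 0.56, over the 12 other settings run. The motile median ran from -0.036 to 0.14, and was 0.29 with Dnahc genes counted as motile. Signs that reversed belonged to means near 0 or to split probes. Without the background limit Rsph3a was at 0.027 and Dnahc8 at 0.045. Kif17 was at 0.065 with median centring. With the mean of a gene's probes Kif17 was at 0.56, Kif3a at 0.63 and Dnahc7a at 0.054. The means of Kif17 and Dnahc7a include probes kept only through mutant RNA. With a dye term Kif17 was at 0.070 and Tekt4 at 0.028. Without one replicate in turn, the mean ran from -0.36 to 0.0051 for Ift122, from -0.15 to 0.11 for Kif17, from -0.89 to 0.13 for Kif3a, from -0.31 to 0.085 for Rsph3a, from -0.29 to 0.076 for Tekt4 and from -0.77 to 0.27 for Dnahc8. The cause was not tested. The test of ratios within arrays is itself a paired one, of 1 mutant and 1 wild-type RNA per array.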
